A study of Caenorhabditis elegans with 20 samples.

Results

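A strain of the nematode Caenorhabditis elegans that carries both ivd-1(tm6784) and bcat-1(hh58), called the double mutant here, has 2 steps of leucine breakdown mutated together. Its messenger RNA was compared with that of wild-type worms. The comparison takes the 4 double mutant samples and the 4 wild-type samples, 8 of the 20 samples of the series, and covers the 15957 genes, of 46284 listed, that reached 0.5 FPKM in at least 4 samples. FPKM is the number of sequenced fragments scaled to transcript length and to the size of the library. Samples were placed in groups by their strain labels alone, but samples and gene lists were chosen with earlier results of these data known. ivd-1(tm6784) is a loss-of-function allele of a gene on chromosome IV (5086856 to 5088864, WBcel235), and bcat-1(hh58) is a genome-edited allele of an X-linked gene with a premature stop and a frameshift in its first exon; worms homozygous for it are viable, and a start codon downstream of the stop may remain in use. The remaining samples are the single mutants ivd-1(tm6784) and bcat-1(hh58) and the ubiquitin ligase mutant hecd-1(tm2371), with 4 samples each. All strains derive from the Bristol N2 wild-type, and whole worms were lysed on day 1 of adulthood after growth at 20 °C on OP50 bacteria. Replicates were collected in independent experiments. Worms with bcat-1(hh58) develop late and have small broods, and collection was shifted to follow each strain, so an effect of the genotype on a gene cannot be told apart from a remaining difference in age or in the embryos carried. In whole-worm RNA, fewer cells of a type and less RNA per cell cannot be told apart either.

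Leucine is broken down in mitochondria. The aminotransferase BCAT-1 turns leucine, isoleucine and valine into keto acids, the branched-chain ketoacid dehydrogenase converts these to acyl-CoA esters, and isovaleryl-CoA dehydrogenase, encoded by ivd-1, performs the next step for leucine alone. Valine and isoleucine also give propionyl-CoA, which worms oxidise through a vitamin B12-dependent route or, when B12 is short, through a shunt that begins with the acyl-CoA dehydrogenase ACDH-1. Leucine further supplies the starter unit of branched-chain fatty acids that worms need for growth.

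The 20 libraries had similar depth. Relative depth, read from the step size of low FPKM values, lay between 0.922 and 1.04 in the double mutant and between 0.93 and 1.02 in wild-type. The summed FPKM was 1004157 to 1061330 in the double mutant and 1075688 to 1118692 in wild-type, and 18295 to 18555 against 17786 to 18029 genes were above 0. On the first pair of principal components, which held 39.53% and 21.49% of the variance, the double mutant samples lay apart from the wild-type samples on both. Double mutant replicate 3 lay furthest out on the second, wild-type replicate 1 had more of some collagen and molt transcripts than the other wild-type samples, and bcat-1 replicate 2 stood apart from the other bcat-1 samples. Several values that these libraries moved are given with and without them.

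Across all genes, 6113 of 15957 (38.3%) differed between double mutant and wild-type worms at an adjusted p of 0.05 or below in a limma fit over all 20 samples on log2(FPKM + 0.5), a scale that understates the change of low genes. Of these, 4218 (26.4% of all tested) were higher and 1895 (11.9%) were lower in the double mutant, and 1532 differed at least 2-fold, 979 of them higher and 553 lower. Per-sample values below run from replicate 1 to 4, and SE is the standard error of the log2 fold change (n = 4 per strain). The median log2 fold change of all genes was 0.098, so list medians below are to be read against that value. Counts of calls in a list are likewise to be read against the 26.4% higher and 11.9% lower of all genes. Double mutant and wild-type values did not overlap in 6056 of 15957 tested genes, and in 5342 of the 6113 called. Statements below that groups did not overlap are to be read against those counts. Many named genes were also chosen for large changes with same-numbered pairs moving one way, which favours separated groups. The split between directions followed the scaling: of the called genes, 69% were higher in FPKM as deposited, 55.0% after median-of-ratios scaling and 44.2% after quantile normalization, and these scalings moved the all-gene median to 0.016 and -0.012. The plot of all tested genes shows that direction went with abundance: of the 1596 most abundant genes 513 were called lower and 258 higher.

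**Figure D1:**
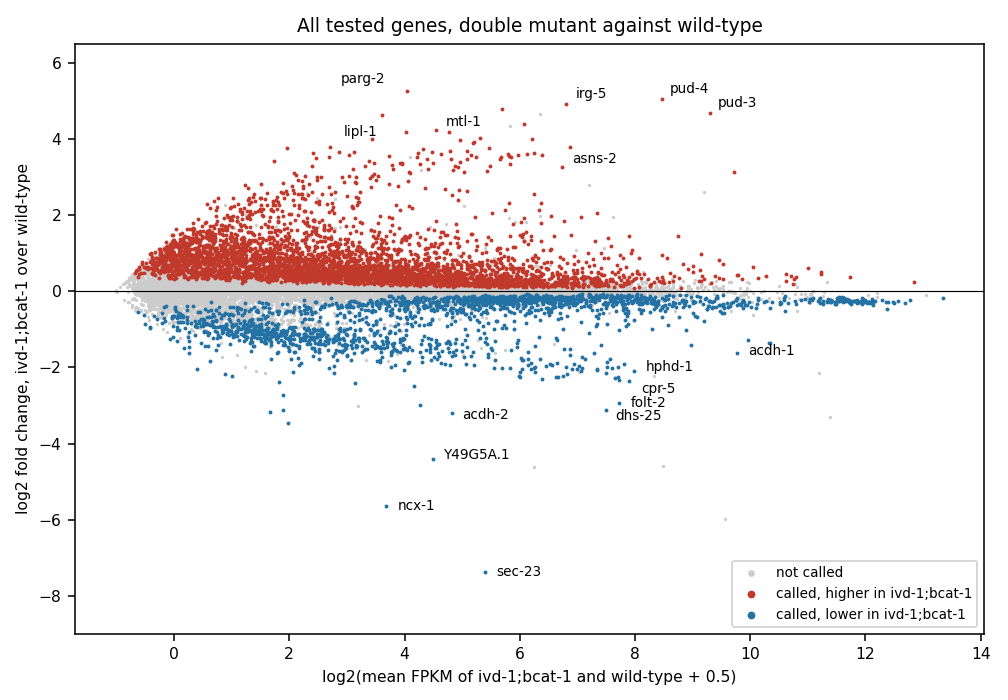
Log2 fold change of the double mutant over wild-type (vertical axis) against mean abundance in both strains (horizontal axis, log2(FPKM + 0.5)) for 15957 genes, with genes called higher in red, called lower in blue and not called in grey. The 4218 higher calls reach 5.26 at parg-2, and the lowest labelled points, ncx-1 and sec-23, are genes listed at 0 in all 4 double mutant samples. The height of those labelled points is not read as a fold change.

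The labels were first checked on the mutated genes. ivd-1 had 64.1, 65.9, 59.7 and 60.3 FPKM in the double mutant, against 149, 162, 153 and 157 FPKM in ivd-1 worms, 126, 127, 127 and 123 FPKM in bcat-1 worms and 224, 230.4, 206 and 209 FPKM in wild-type. No double mutant sample overlapped another of these strains, and both single mutants were also below wild-type. The log2 fold change against wild-type was -1.79 ± 0.048 (SE), adjusted p = 4.17e-14. It was -1.0 ± 0.048 (SE), adjusted p = 7.69e-10, against bcat-1 worms and -1.3 ± 0.048 (SE), adjusted p = 3.73e-12, against ivd-1 worms. On the opposite strand the gene overlaps pygo-1, and the library kit marks strand. bcat-1 mRNA was not lower in either strain with the edited allele. It had 214, 228, 146 and 189 FPKM in the double mutant, 195 to 228 FPKM in ivd-1 worms, 197 to 218 FPKM in bcat-1 worms and 142, 145, 123 and 129 FPKM in wild-type. Its 4 double mutant values all exceeded the wild-type values (log2 fold change 0.51 ± 0.11 (SE), adjusted p = 0.00147), so the message is present and the label rests on the allele, not on its level.

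**Figure D2:**
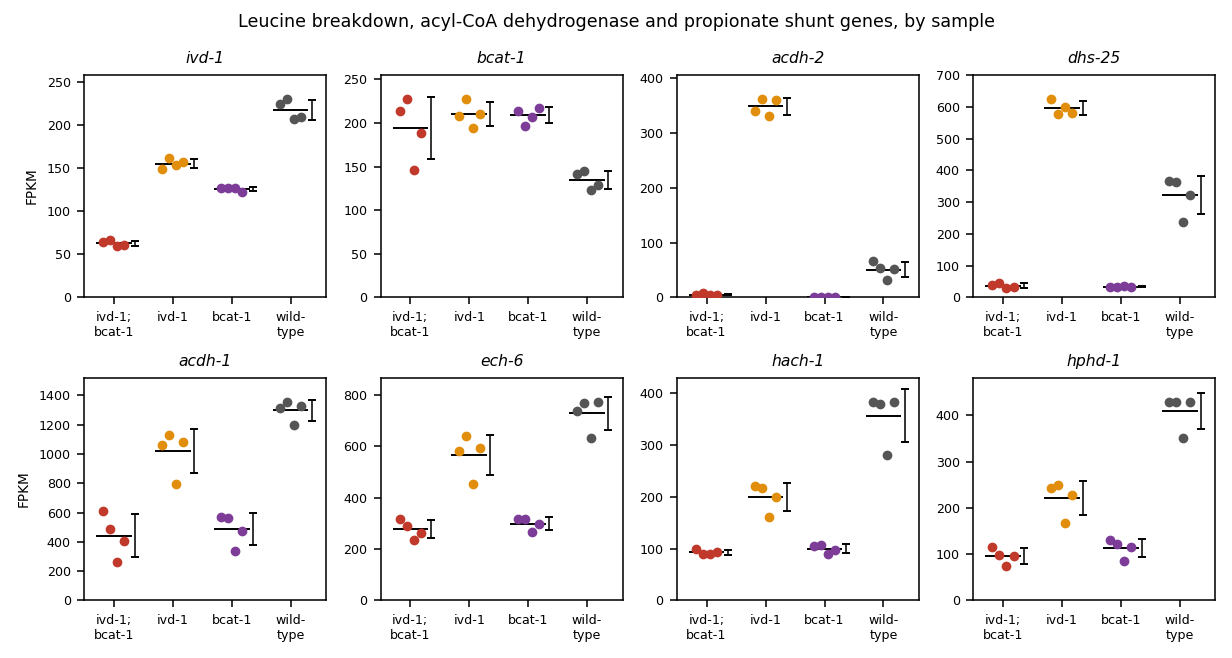
FPKM of 8 genes (vertical axes, from 0) in each of 4 samples of the double mutant, ivd-1, bcat-1 and wild-type strains. Horizontal lines are means and error bars SD (n = 4). ivd-1 mRNA is lowest in the double mutant, acdh-2 and dhs-25 are high in ivd-1 worms and low in both strains with the bcat-1 lesion, and the propionate shunt genes are lowest in those same strains.

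Most enzymes of branched-chain amino acid breakdown stayed lower when both steps were mutated. Of 18 tested genes of the list, 15 were called lower and 1, bcat-1 itself, was called higher, against 11.9% lower and 26.4% higher among all genes, with a median log2 fold change of -0.44. The same list had a median of -0.40 in bcat-1 worms and -0.024 in ivd-1 worms, each against wild-type. The ketoacid dehydrogenase was lowered little: its E1 subunits bckd-1A and bckd-1B had log2 fold changes of -0.41 and -0.19, the E2 subunit dbt-1 of -0.29 and the E3 subunit dld-1 of -0.23, all called. mccc-1, a subunit of the methylcrotonyl-CoA carboxylase that follows isovaleryl-CoA dehydrogenase, had 102, 100.5, 98.5 and 98.2 FPKM in the double mutant and 123, 128, 121 and 119.7 FPKM in wild-type, a log2 fold change of -0.30 ± 0.035 (SE), adjusted p = 6.39e-06. The groups did not overlap, though the shift was small. Of the acyl-CoA dehydrogenases listed, acdh-9 was called lower (-0.71), while acdh-3 (-0.047, adjusted p = 0.452) and acdh-4 (-0.43, adjusted p = 0.225) were not. acdh-9 had 81, 90.3, 68.4 and 76.2 FPKM in the double mutant, against 298, 291, 339 and 312 FPKM in ivd-1 worms, 70.3, 76, 66 and 67.4 FPKM in bcat-1 worms and 134, 120.3, 126 and 136 FPKM in wild-type. Of these strains only ivd-1 worms were above wild-type. The thiolases kat-1 (-0.77) and acaa-2 (-0.20), the hydratase ech-5 (-0.45) and hacd-1 (-0.99), named as a hydroxyacyl-CoA dehydrogenase, were also called lower.

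The propionate shunt shares ech-6, hach-1, hphd-1 and alh-8 with the list above, so the lists are not independent. Together with acdh-1, all 5 genes were called lower, with a median log2 fold change of -1.62, against -1.45 in bcat-1 worms and -0.37 in ivd-1 worms. acdh-1, the first enzyme of the shunt, had 613, 485, 261 and 405 FPKM in the double mutant, 1061, 1130, 798 and 1084 FPKM in ivd-1 worms, 572, 561, 335 and 475 FPKM in bcat-1 worms and 1314, 1358, 1196 and 1324 FPKM in wild-type (log2 fold change against wild-type -1.62 ± 0.20 (SE), adjusted p = 1.23e-05). hphd-1, the hydroxyacid-oxoacid transhydrogenase, had 116, 98, 74.3 and 96.8 FPKM in the double mutant and 429.5, 428, 351 and 429 FPKM in wild-type, a log2 fold change of -2.1 ± 0.15 (SE), adjusted p = 2.21e-08. hach-1, a hydroxyacyl-CoA hydrolase, had 99.7, 90.5, 89.3 and 93 FPKM in the double mutant and 384, 379.9, 280.3 and 383 FPKM in wild-type, a log2 fold change of -1.92 ± 0.11 (SE), adjusted p = 2.74e-09. In each of these the groups stood clear of each other, and replicate 3 gave the lowest value on both sides. The enoyl-CoA hydratase ech-6 fell by 1.4 and the dehydrogenase alh-8 by 0.46 on the log2 scale. Against ivd-1 worms all 5 were lower in the double mutant, as were 23.2% of all genes. Against bcat-1 worms, where 23.4% of all genes were called, none passed the limma test and 0 had an unadjusted p under 0.05, with log2 differences from -0.24 to 0.054. The other route moved little: of the 7 genes of the B12-dependent pathway, the carboxylase subunits pcca-1 (0.25) and pccb-1 (0.18) were called higher and the other 5 were not called. After median-of-ratios scaling pccb-1 no longer passed (adjusted p = 0.363).

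acdh-2, which encodes another acyl-CoA dehydrogenase, separated these 4 strains. It had 3.8, 7.48, 4.23 and 4.57 FPKM in the double mutant, 339.6, 363, 332 and 361 FPKM in ivd-1 worms, 0.192, 0.466, 0.221 and 0.226 FPKM in bcat-1 worms and 65.7, 53.3, 31.6 and 52.6 FPKM in wild-type. No group overlapped another: ivd-1 worms were above wild-type, bcat-1 worms were near 0, and the double mutant lay between bcat-1 worms and wild-type. The log2 fold change was -3.21 ± 0.20 (SE), adjusted p = 4.05e-09, against wild-type, 2.80 ± 0.20 (SE), adjusted p = 2.16e-07, against bcat-1 worms, and -6.03 ± 0.20 (SE), adjusted p = 5.96e-13, against ivd-1 worms. It overlaps ins-13 on the same strand, so some fragments may belong to that gene. C09B8.4, an unnamed gene noticed after its values were seen, had the same order, with 3.13, 8.02, 3.63 and 4.27 FPKM in the double mutant, 186 to 218 FPKM in ivd-1 worms, 0.289 to 0.624 FPKM in bcat-1 worms and 24.7, 20.9, 8.4 and 18.8 FPKM in wild-type. dhs-25, a short-chain dehydrogenase, had 37.9, 45.8, 29.1 and 32.9 FPKM in the double mutant, 627, 579, 599.5 and 582 FPKM in ivd-1 worms, 32.1, 31.4, 34.8 and 32.7 FPKM in bcat-1 worms and 367, 362, 237 and 321 FPKM in wild-type. Here the double mutant and bcat-1 worms overlapped (log2 difference 0.13 ± 0.12 (SE), adjusted p = 0.406), and both were far below wild-type (-3.13 ± 0.12 (SE), adjusted p = 1.66e-11, for the double mutant). folt-2, a folate transporter, had 52.5, 51.4, 39.3 and 50.3 FPKM in the double mutant and 399, 357, 313 and 421 FPKM in wild-type, a log2 fold change of -2.93 ± 0.13 (SE), adjusted p = 7.15e-11. It had 42 to 65.8 FPKM in bcat-1 worms and 345 to 418 FPKM in ivd-1 worms, so its low level also went with the bcat-1 lesion. cpr-5, a cathepsin B-like protease, had 91.1, 72.9, 61.4 and 84.1 FPKM in the double mutant and 456, 441, 337 and 365 FPKM in wild-type, a log2 fold change of -2.37 ± 0.17 (SE), adjusted p = 3.45e-08. Among genes with no name of the letter and number kind, the rule picked Y49G5A.1 (-4.40), Y69A2AR.12 (-3.46) and Y69A2AR.25 (-3.18). Y49G5A.1 had 1.43, 1.27, 1.59 and 1.79 FPKM in the double mutant and 33, 52, 39.3 and 45.9 FPKM in wild-type, without overlap, and 0.712 to 2.33 FPKM in bcat-1 worms against 23.1 to 33.5 FPKM in ivd-1 worms.

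The named genes with the largest rise included stress, defence and lipid genes as well as collagens. parg-2, a poly(ADP-ribose) glycohydrolase, had the largest log2 fold change among named genes, 5.26 ± 0.29 (SE), adjusted p = 1.66e-09. It had 35.2, 41.5, 20.1 and 30.2 FPKM in the double mutant, 4.82, 8.27, 8.86 and 4.53 FPKM in ivd-1 worms, 98.5, 37.7, 93.9 and 69.6 FPKM in bcat-1 worms and 0.554, 0.162, 0.447 and 0.171 FPKM in wild-type. All samples of these 3 strains stood above every wild-type sample, ivd-1 worms least far. pud-4 and pud-3, neighbouring genes whose proteins are abundant in insulin receptor mutants, had 648, 766, 675 and 654 FPKM and 1145, 1391, 1194 and 1113 FPKM in the double mutant, against 10.6, 22.8, 35 and 18.6 FPKM and 26.4, 51.3, 83.4 and 42.1 FPKM in wild-type. Their log2 fold changes were 5.06 ± 0.44 (SE), adjusted p = 2.37e-07, and 4.68 ± 0.49 (SE), adjusted p = 1.93e-06. Neither rose in ivd-1 worms, where pud-4 had 11.3 to 17.8 FPKM, while bcat-1 worms had 331 to 718 FPKM. irg-5, an infection response gene, had 277, 277, 101 and 206 FPKM in the double mutant and 4.38, 8.07, 5.97 and 6.54 FPKM in wild-type, a log2 fold change of 4.92 ± 0.30 (SE), adjusted p = 3.81e-09. mtl-1, a metallothionein, had 40.6, 47, 50.03 and 37.9 FPKM in the double mutant and 2.48, 2.54, 2.09 and 0.806 FPKM in wild-type, a log2 fold change of 4.23 ± 0.30 (SE), adjusted p = 2.08e-08. dod-3, a gene downstream of the transcription factor DAF-16, had 81.4, 111, 66.4 and 67.5 FPKM in the double mutant and 6.1, 7.17, 5.94 and 3.15 FPKM in wild-type (log2 fold change 3.77). In these 3 genes every double mutant sample exceeded every wild-type sample clearly, and double mutant replicate 3 had the lowest irg-5 and dod-3 values but the highest mtl-1 value. T26H5.9, a gene without a name, had 22.4, 23.3, 26.8 and 19.7 FPKM in the double mutant and 0.947, 0.406, 0.393 and 0.18 FPKM in wild-type (log2 fold change 4.63 ± 0.34 (SE), adjusted p = 3.36e-08). fipr-16, of a family of small secreted-type peptides, had 3.26, 5.95, 8.74 and 9.17 FPKM in the double mutant and was listed at 0 in all 4 wild-type samples, so no fold is given.

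**Figure D3:**
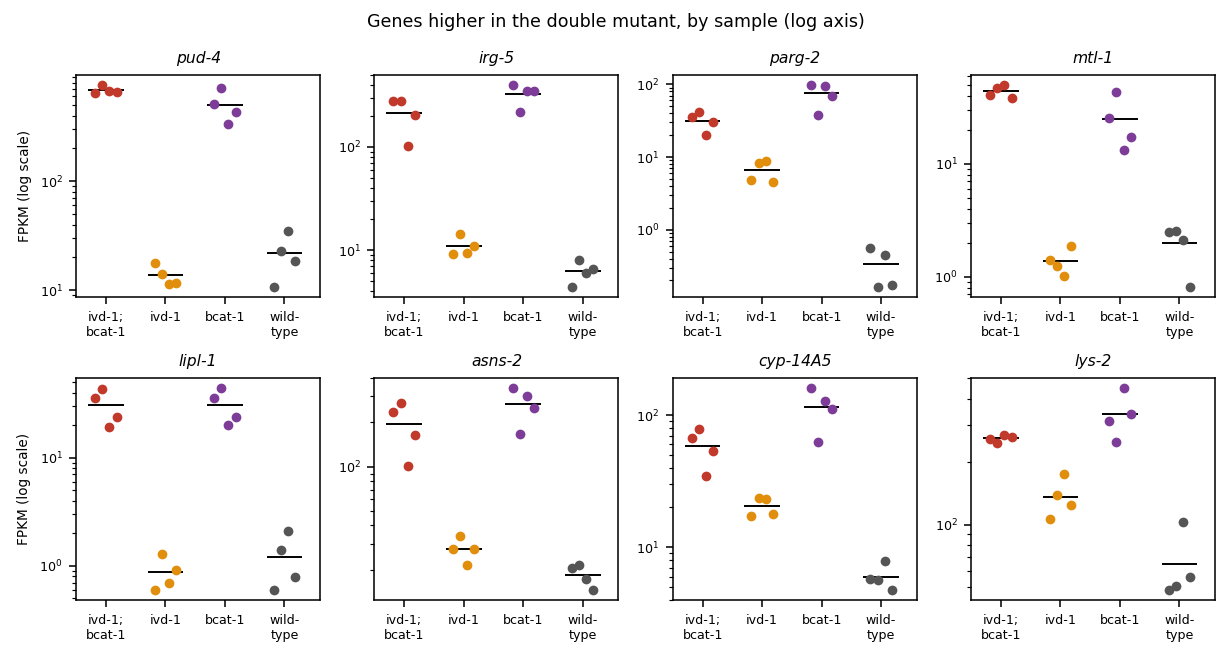
FPKM on a log axis for 8 genes called higher in the double mutant, in each of 4 samples of the double mutant, ivd-1, bcat-1 and wild-type strains, with horizontal lines at the means. Every double mutant point lies above every wild-type point, and pud-4 and lipl-1 in ivd-1 worms lie in or near the wild-type range.

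Some lipase genes and the amino acid stress gene asns-2 also rose. Of 6 tested lipl genes, counted after their values were seen, 3 were higher and none lower. lipl-1, a lysosomal acid lipase, had 35.9, 42.9, 19.4 and 23.8 FPKM in the double mutant, 0.593 to 1.28 FPKM in ivd-1 worms, 35.4, 44.2, 19.9 and 23.9 FPKM in bcat-1 worms and 0.594, 1.39, 2.08 and 0.786 FPKM in wild-type, a log2 fold change against wild-type of 4.19 ± 0.33 (SE), adjusted p = 6.48e-08. lipl-2, its relative, rose by 2.60. asns-2, an asparagine synthetase, had 237, 273, 101 and 165 FPKM in the double mutant, 27.6, 33.8, 21.7 and 27.6 FPKM in ivd-1 worms, 343, 167, 301 and 251 FPKM in bcat-1 worms and 20.7, 21.7, 17.3 and 14.5 FPKM in wild-type. The double mutant did not overlap wild-type but did overlap bcat-1 worms, and the log2 fold change against wild-type was 3.27 ± 0.27 (SE), adjusted p = 1.25e-07. In its list of leucine sensing, TOR and amino acid stress genes, 8 of 21 were higher and 1 lower, with a median of 0.10, close to that of all genes. The sestrin sesn-1 (0.55), the AMP kinase subunit aak-2 (0.41) and the autophagy and lysosome regulator hlh-30 (0.33) were among those higher. Autophagy genes were called higher in 16 of 24 cases and lower in none, with a median of 0.23, and in 10 after median-of-ratios scaling. sqst-1, the selective autophagy receptor, averaged 32.7 ± 1.05 FPKM in the double mutant and 14.3 ± 1.43 FPKM in wild-type (SD, n = 4 each; log2 fold change 1.17 ± 0.14 (SE), adjusted p = 1.11e-05). lgg-1, the worm ATG8, rose by 0.65, atg-2 by 0.74 and epg-2 by 1.4 on the log2 scale.

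Secreted defence proteins were mixed. Of 34 lysozyme and saposin-like genes, 16 were higher and 2 lower, against 26.4% and 11.9% of all genes (median 0.40). lys-2, a lysozyme, had 258, 247, 267 and 262 FPKM in the double mutant and 48.4, 50.9, 103 and 56 FPKM in wild-type, a log2 fold change of 2.07 ± 0.21 (SE), adjusted p = 1.21e-06. Wild-type replicate 3 was the highest of its group and still far below any double mutant sample. spp-5, one of the most abundant called genes, had 2393 to 2554 FPKM in the double mutant and 1385 to 1904 FPKM in wild-type (log2 fold change 0.62). C-type lectins were divided, with 35 higher and 22 lower of 116, and their median of 0.19 turned to -0.011 after quantile normalization. clec-67 (1.67) and clec-196 (1.95) rose, clec-170 (-2.02) and clec-10 (-1.67) fell. Detoxification genes were compared with the 26.4% higher and 11.9% lower of all genes. Of 54 cytochrome P450 genes 22 were higher and 2 lower, and of 99 glucuronosyl and glutathione transferase genes 34 were higher and 12 lower. cyp-14A5 had 67.3, 78.8, 34.6 and 53.5 FPKM in the double mutant, 17.1 to 23.6 FPKM in ivd-1 worms, 62.3 to 161 FPKM in bcat-1 worms and 5.74, 5.66, 7.83 and 4.72 FPKM in wild-type (log2 fold change against wild-type 3.14 ± 0.25 (SE), adjusted p = 1.1e-07). gst-38 (2.82), gst-20 (2.13) and ugt-31 (2.60) rose as well, whereas ugt-53 fell by 2.15. Members of such families can share reads with near relatives, and their values are uncertain to that extent.

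Mitochondrial and ribosomal protein genes fell together by small amounts. Of 42 nuclear-encoded respiratory chain genes, 41 were called lower and none higher, with a median log2 fold change of -0.28 against an all-gene median of 0.098. gas-1, a core subunit of complex I, had 81.2, 82.1, 70.9 and 72.8 FPKM in the double mutant and 103, 109, 115 and 105 FPKM in wild-type (log2 fold change -0.49 ± 0.073 (SE), adjusted p = 6.36e-05). asb-2, a subunit of the ATP synthase, had 321, 313, 243 and 276 FPKM in the double mutant and 386, 421, 429 and 382 FPKM in wild-type (log2 fold change -0.50 ± 0.088 (SE), adjusted p = 0.000365). Neither gene showed an overlap of the groups. In the tricarboxylic acid cycle and pyruvate dehydrogenase 17 of 26 genes fell (median -0.17), among them pdhb-1 (-0.44), mdh-2 (-0.39) and the citrate synthase cts-1 (-0.24). Mitochondrial ribosomal proteins were lower in 49 of 69 cases (median -0.20), for example mrps-28 (-0.49) and mrpl-35 (-0.48). In ivd-1 worms the medians of these 3 lists against wild-type were -0.015, 0.063 and -0.011, and in bcat-1 worms -0.21, -0.14 and -0.18. Chaperones and importers of the mitochondrial unfolded protein response followed, with 9 of 18 lower. The chaperonin hsp-60 had 243, 245, 244 and 254 FPKM in the double mutant and 344, 383, 370.1 and 354 FPKM in wild-type (log2 fold change -0.56 ± 0.036 (SE), adjusted p = 7.88e-09). The regulators atfs-1 (0.36) and dve-1 (0.60) were the 2 genes of that list called higher.

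Cytosolic ribosomal proteins took a large share of all FPKM, 23.3% to 24.7% in the double mutant and 26.6% to 27.6% in wild-type. Of 81 genes 78 were called lower (median -0.26), 79 after median-of-ratios scaling but only 16 after quantile normalization, where the median was -0.036. The summed FPKM was 262134, 258000, 236328 and 234321 in the double mutant and 286100, 301071, 308277 and 287199 in wild-type, without overlap. The most abundant called genes that fell were rpl-41.2 (-0.18), rps-25 (-0.23), rpl-29 (-0.32), rpl-39 (-0.25), rps-24 (-0.31) and the ribosomal protein gene Y37E3.8 (-0.28), of which only rpl-29 still passed after quantile normalization. The call for rpl-41.2 was also lost without double mutant replicate 3 or 4 or wild-type replicate 2 or 3, and that for rpl-39 without double mutant replicate 4. Those that rose were far-2 (0.25), a fatty acid and retinol binding protein, the yolk proteins vit-6 and vit-5, the small heat shock protein sip-1 (0.45), spp-5 and the unnamed Y119D3B.21 (0.39).

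**Figure D4:**
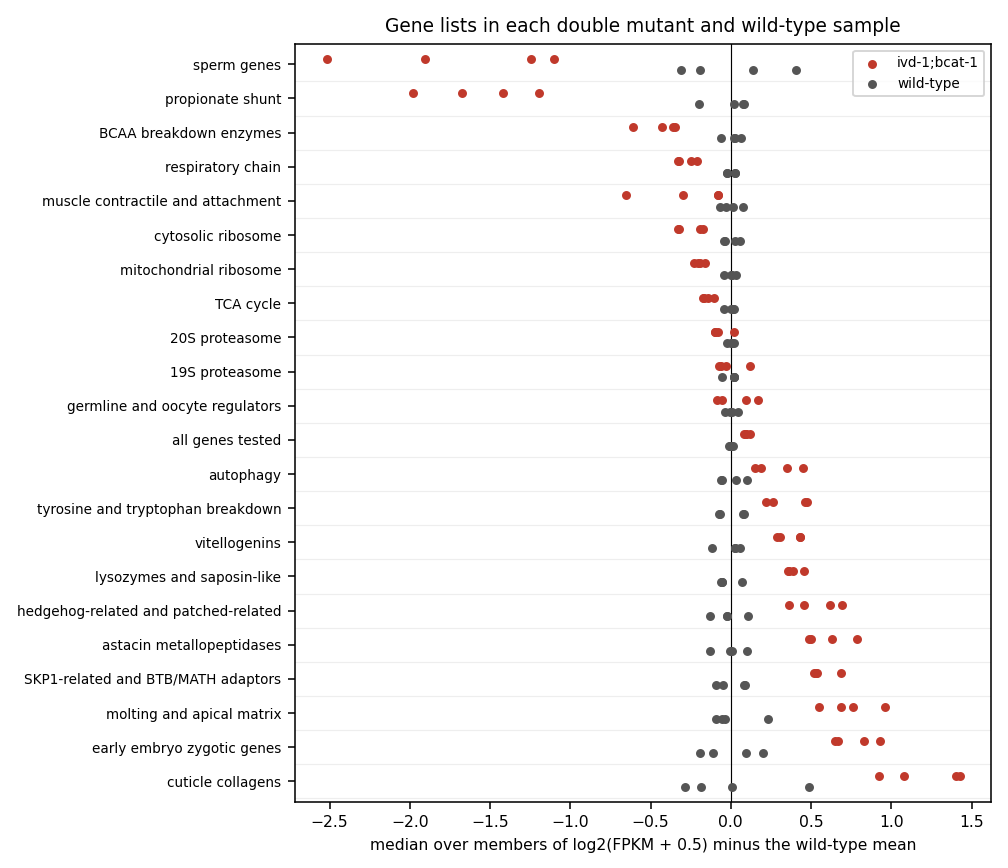
Median over the members of 21 gene lists and over all tested genes (rows) of log2(FPKM + 0.5) minus the wild-type mean (horizontal axis), 1 point per sample, with the 4 double mutant samples in red above the 4 wild-type samples in grey. The sperm and propionate shunt lists lie furthest left in the double mutant and cuticle collagens furthest right, with the replicate 3 point of the sperm list outermost, while the proteasome lists lie near 0.

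The study followed the ubiquitin fusion degradation pathway, so genes of protein degradation were examined next. Few proteasome genes were called, while many ubiquitin ligase adaptor genes were higher. None of 20 genes of the 19S regulatory particle was called in limma (median -0.0057), against 38.3% of all genes. Of these 20, 2 had an unadjusted p under 0.05, and median-of-ratios scaling called 3 lower. Against wild-type, the 19S list had 8 genes called lower in bcat-1 worms (median -0.12) and 3 in ivd-1 worms (median -0.11). In the double mutant against ivd-1 worms, 4 were higher and 1 lower. The member furthest from wild-type, rpn-6.2, had 16.8, 15.4, 16.9 and 13 FPKM in the double mutant and 18.5, 19.1, 15.8 and 17 FPKM in wild-type (log2 fold change -0.18 ± 0.084 (SE), adjusted p = 0.102), and these ranges overlapped. In the 20S core 3 of 14 were lower, pas-4 (-0.16), pas-3 (-0.12) and pbs-6 (-0.12), and the pas-3 call was lost when any of 5 single libraries of these strains was left out. After median-of-ratios scaling 8 of them were lower and after quantile normalization none, and the median of -0.073 turned to 0.0078. Of 13 genes of ubiquitin ligases and ubiquitin fusion degradation only ubq-2, a ubiquitin fused to a ribosomal protein, was called (-0.29), and not after quantile normalization. Of 415 SKP1-related, F-box and BTB/MATH genes, 297 passed the low-value filter, 169 were higher and 9 lower (median 0.58). The higher calls numbered 151 after median-of-ratios scaling and 84 after quantile normalization, beside 28 lower. skr-8, a SKP1-related core subunit, had 30.1, 30.3, 52.6 and 35.4 FPKM in the double mutant and 18, 7.22, 8.88 and 17.5 FPKM in wild-type (log2 fold change 1.56 ± 0.35 (SE), adjusted p = 0.00205). The F-box genes fbxc-58 (2.46) and fbxc-51 (1.72) rose, and math-14 fell by 1.88. Against wild-type this list had a median of 0.53 in bcat-1 worms and 0.065 in ivd-1 worms. The summed FPKM of early embryo genes was also higher in every double mutant sample, 178 to 211 against 118 to 142 in wild-type, and its part in the adaptor result was not tested.

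Many transcripts of cuticle building were higher in the double mutant. Of 139 cuticle collagens 76 were higher and 20 lower, with a median of 1.19 in the double mutant, 1.93 in ivd-1 worms and 2.49 in bcat-1 worms, each against wild-type. Lower calls fell to 10 without double mutant replicate 3, to 13 without its replicate 4 and to 12 without wild-type replicate 2 or without wild-type replicate 3. col-88 had 99.1, 81, 32.8 and 43.3 FPKM in the double mutant and 31.1, 2.23, 1.15 and 1.04 FPKM in wild-type, a log2 fold change of 3.93 ± 0.79 (SE), adjusted p = 0.000926. Wild-type replicate 1 lay apart from its group. Without it the change was 4.94. The collagens col-175 (3.68), col-63 (3.66) and col-91 (3.63) and the unnamed genes Y48G8AL.12 (4.40) and R12E2.7 (4.18) had the same high replicate and gave 4.34, 4.2, 4.58, 5.33 and 5.27 without it. Summed over the list, collagen transcripts were not more abundant, with 63781, 62194, 42905 and 54900 FPKM in the double mutant and 61164, 66173, 66639 and 63099 FPKM in wild-type. Those ranges overlapped, and double mutant replicate 3 was lowest. Of 26 molting and apical matrix genes 18 were higher and none lower (median 0.84). mlt-8, a gene of the molt, had 17.5, 13.9, 13.3 and 15 FPKM in the double mutant and 4.11, 2.53, 1.92 and 1.35 FPKM in wild-type (log2 fold change 2.45 ± 0.43 (SE), adjusted p = 0.000309). mlt-10 (1.74), mlt-11 (1.79) and the lipocalin lpr-3 (2.35) also rose. Without wild-type replicate 1, mlt-8 gave 2.68, mlt-10 1.91, mlt-11 1.91 and lpr-3 2.67, and 17 genes of the list were higher. The list summed to 150.0 to 185 FPKM in the double mutant, 162 to 266 in ivd-1 worms, 214 to 495 in bcat-1 worms and 103.6 to 116 in wild-type. Hedgehog-related genes, many of them epidermal, were higher in 28 and lower in 3 of 56 cases, led by grl-16 (3.73; 4.56 without wild-type replicate 1), wrt-10 (2.55), grl-7 (2.54) and grd-6 (2.44; 3.05 without it). Astacin metallopeptidases, several of which act in the molt, were higher in 18 of 30 cases, among them nas-27 (1.83) and nas-36 (0.96).

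**Figure D5:**
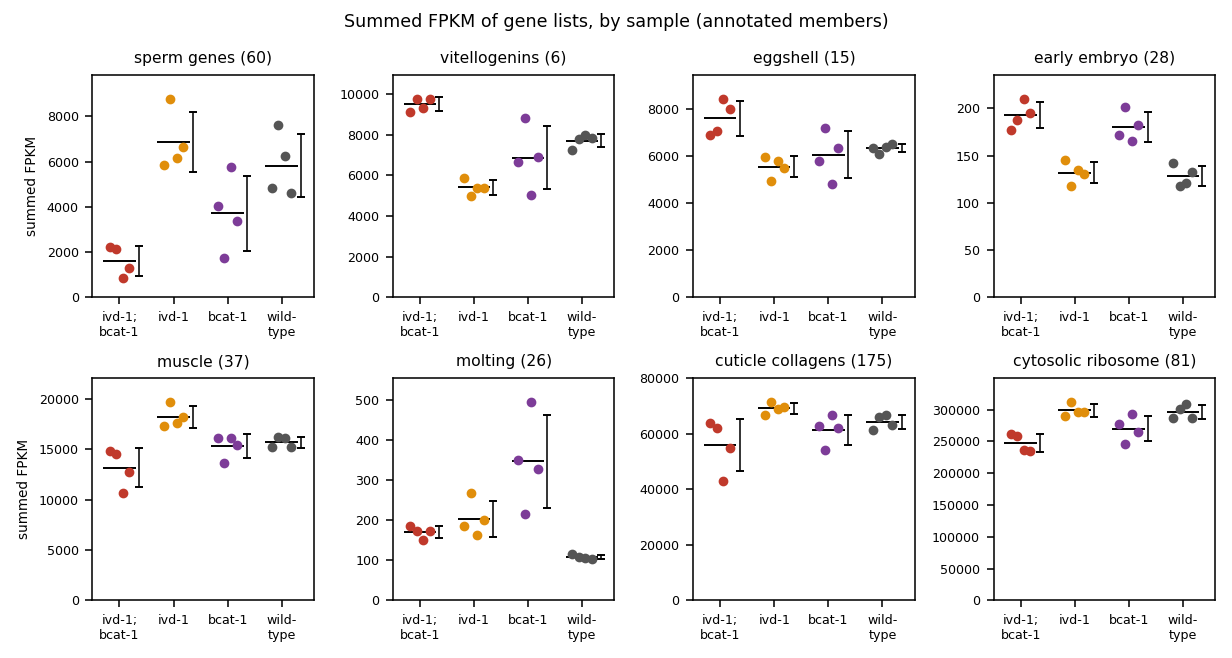
Summed FPKM of 8 gene lists (vertical axes, from 0; number of annotated genes in brackets) in each of 4 samples of the double mutant, ivd-1, bcat-1 and wild-type strains, with means and SD (n = 4). Sperm genes are lowest and vitellogenins highest in the double mutant by their means, and the mean of the molting genes is highest in bcat-1 worms.

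Sperm transcripts had the lowest median of the 50 lists examined. Of 58 sperm genes 44 were lower and none higher, with a median log2 fold change of -1.72, against -0.57 in bcat-1 worms and 0.32 in ivd-1 worms. Summed over 60 genes they had 2215, 2128, 839.7 and 1303 FPKM in the double mutant and 4823, 7617, 6239 and 4617 FPKM in wild-type, without overlap. The sums were 5846 to 8786 in ivd-1 worms and 1753 to 5758 in bcat-1 worms, where replicate 2 overlapped the double mutant. Without double mutant replicate 3, the lowest, 39 genes were still lower and the median was -1.36. msp-36, a major sperm protein, had 103.5, 85, 35.6 and 65.3 FPKM in the double mutant and 287, 435, 394 and 277 FPKM in wild-type (log2 fold change -2.34 ± 0.35 (SE), adjusted p = 7.27e-05). ssp-9 (-2.42), msp-10 (-2.26), msp-152 (-2.26), msp-64 (-2.23), msp-49 (-2.17), nspa-8 (-2.24) and nspd-10 (-2.21) completed the largest falls among named genes. Major sperm protein genes are nearly identical, so the level of any single copy is uncertain, whereas their sum is less so. Name stems, picked after their values were seen, differed. The msp genes were lower in 28 of 29 cases and the ssp genes in 11 of 12. The spe genes were lower in 6 of 29, against 11.9% of all genes. Their median log2 fold change was -0.33, beside 0.30 in bcat-1 worms and 0.60 in ivd-1 worms, each against wild-type. Age was matched only as described above.

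Some yolk protein genes rose. Of 5 tested vitellogenins 3 were higher, and vit-2 was listed at 0 in all 20 samples. That 0 may be a missing estimate, and the vitellogenin sums in the text and the plot of list sums hold no vit-2 signal. vit-5 had 2651, 2861, 2860 and 2921 FPKM in the double mutant, 1544, 1328, 1384 and 1404 FPKM in ivd-1 worms, 1950, 2647, 1370 and 1957 FPKM in bcat-1 worms and 1886, 2030, 2029 and 1982 FPKM in wild-type. Every double mutant sample was above every sample of these other strains, though bcat-1 replicate 2 came close. The log2 fold change against wild-type was 0.51 ± 0.13 (SE), adjusted p = 0.00422. vit-6 had 3632, 4004, 3675 and 4021 FPKM in the double mutant and 2867, 2952, 3016 and 3073 FPKM in wild-type (log2 fold change 0.36 ± 0.086 (SE), adjusted p = 0.00318). The third, vit-3 (0.42 ± 0.15 (SE), adjusted p = 0.0326), lost its call after median-of-ratios scaling. It also lost it when any of 6 single libraries of the double mutant and wild-type strains was left out. Against ivd-1 worms all 5 were higher in the double mutant, with a median of 0.92. Eggshell genes summed to 6920 to 8459 FPKM in the double mutant and 6109 to 6509 FPKM in wild-type, with perm-2 (0.46) and perm-4 (0.40) called higher of 15 genes and 1, egg-4, called lower (-0.22; this call was lost without double mutant replicate 1 or 2 or wild-type replicate 4). Calls among germline and oocyte regulators leaned lower, with 2 higher and 11 lower of 40, against 26.4% and 11.9% of all genes. Their median was 0.013. Those lower included the helicase glh-1 (-0.50) and the PUF proteins fbf-1 (-0.47) and fbf-2 (-0.57), which keep germline stem cells. glh-1 had 186, 186, 177 and 182 FPKM in the double mutant and 244, 264, 262 and 262 FPKM in wild-type, a log2 fold change of -0.50 ± 0.035 (SE), adjusted p = 2.05e-08. Replication and mitosis genes gave 1 call of 37, klp-7 (-0.30), and none of 25 nucleoporins was called in limma, 0 having an unadjusted p under 0.05. Genes first transcribed in early embryos were higher in 17 of 23 cases (median 0.84) and in 8 after quantile normalization. Their sum was 178, 188, 211 and 195 FPKM in the double mutant and 142, 118, 121 and 132 FPKM in wild-type. These sums did not overlap. sdz-28 (1.83), pes-10 (1.3), tbx-8 (1.25) and hnd-1 (1.21) led the list.

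Several muscle genes fell. Of 37 contractile and attachment genes 15 were lower and none higher (median -0.27), and 8 were lower without double mutant replicate 3, with a median of -0.13. The list summed to 14848, 14521, 10696 and 12726 FPKM in the double mutant and 15194, 16264, 16101 and 15259 FPKM in wild-type, without overlap and with replicate 3 furthest away. tnt-3, a troponin T, had 33.2, 33, 20.7 and 26.9 FPKM in the double mutant and 51.6, 50.1, 45.7 and 49.3 FPKM in wild-type (log2 fold change -0.80 ± 0.12 (SE), adjusted p = 9.11e-05). The pharyngeal myosin myo-1 fell by 0.73. In the list for neurotransmission 5 of 29 genes were higher, a smaller share than the 26.4% of all genes, and its median of 0.12 lay near that of all genes and turned to -0.051 after quantile normalization. The syntaxin unc-64 averaged 24.1 ± 1.58 FPKM in the double mutant and 17 ± 0.911 FPKM in wild-type (SD, n = 4 each; log2 fold change 0.49 ± 0.12 (SE), adjusted p = 0.00328). The 9 intestine markers, 5 of them vitellogenins, summed to 11304, 12137, 10977 and 11840 FPKM in the double mutant and 9273, 9985, 10300 and 9860 FPKM in wild-type, without overlap. Most of that sum came from the vitellogenins described above, with 9109 to 9774 FPKM in the double mutant and 7248 to 7972 FPKM in wild-type. The sum therefore does not describe the other intestine markers. Among the others, the protease cpr-1 (1.08) and the esterase ges-1 (0.34) were higher, while the intestinal transcription factor elt-2 (0.16, adjusted p = 0.374) and the protease asp-1 (-0.21, adjusted p = 0.234) were not called. Markers of germline, muscle, neurons, epidermis and intestine were all present. Neuropeptide and insulin-like peptide genes were higher in 20 of 61 cases and lower in none, against 26.4% and 11.9% of all genes, among them the insulin-like ins-7 (0.87) and the neuropeptide gene flp-8 (0.84). Of 20 genes of dauer signalling 9 were higher and 1 lower, with the Smad genes daf-14 (0.74) and daf-8 (0.53) and a further member, daf-5 (0.54), higher. Calls for ins-7 and daf-8 were lost after quantile normalization.

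Other metabolic lists moved in parts, and their counts are to be read against 26.4% higher and 11.9% lower among all genes. Tyrosine and tryptophan breakdown was higher in 7 of 12 genes and lower in none (median 0.37). hpd-1, the hydroxyphenylpyruvate dioxygenase, had 282, 295, 269 and 276 FPKM in the double mutant and 154, 157, 126 and 139 FPKM in wild-type (log2 fold change 0.96 ± 0.088 (SE), adjusted p = 3.68e-07). The tyrosine aminotransferase tatn-1 rose by 0.76 and the homogentisate oxidase hgo-1 by 0.66. These consecutive enzymes of tyrosine breakdown thus moved opposite to most enzymes in the list of branched-chain amino acid breakdown. In folate, glycine and nucleotide synthesis 8 of 16 genes were higher and 3 lower, with 5 higher without double mutant replicate 4. dao-3, a methylenetetrahydrofolate dehydrogenase, had 44.2, 46.7, 45.5 and 41.7 FPKM in the double mutant and 24.2, 24.6, 23 and 23.4 FPKM in wild-type (log2 fold change 0.89 ± 0.078 (SE), adjusted p = 2.73e-07). Purine synthesis gene atic-1 (0.79) and pyrimidine synthesis gene pyr-1 (0.55) rose too. Fatty acid synthesis genes fell in 11 and rose in 4 of 26 cases (7 lower without double mutant replicate 3). elo-5, an elongase of branched-chain fatty acids, had 197, 167, 166 and 195 FPKM in the double mutant, 289, 254, 310.2 and 279 FPKM in ivd-1 worms, 231, 227, 314 and 290.1 FPKM in bcat-1 worms and 284, 283, 294 and 271 FPKM in wild-type. The double mutant was below every sample of the other 3 strains (log2 fold change -0.64 ± 0.092 (SE), adjusted p = 4.52e-05, against wild-type). elo-6, a related elongase, had 369.9, 328, 291 and 347 FPKM in the double mutant and 518, 543, 518 and 546 FPKM in wild-type (log2 fold change -0.67 ± 0.083 (SE), adjusted p = 9.78e-06). The stearoyl desaturase fat-7 varied within strains, with 48, 52.2, 14.9 and 18.2 FPKM in the double mutant and 219.7, 278, 41.4 and 57.1 FPKM in wild-type, and its log2 fold change of -1.91 ± 0.65 (SE), adjusted p = 0.0268, lost its call without double mutant replicate 3 or 4 or wild-type replicate 1 or 2. In both strains replicates 1 and 2 were above replicates 3 and 4, the double mutant was lower in all 4 same-numbered pairs, and the adjusted p ranged from 9.31e-05, with a replicate block, to 0.102 over the alternatives. In glycolysis 9 of 19 genes fell and 3 rose, with aldo-1 (-0.58) and gpd-2 (-0.46) lower. icl-1, the bifunctional enzyme of the glyoxylate cycle, had 88.4, 93, 107 and 111 FPKM in the double mutant and 76.3, 55.2, 35.6 and 46.1 FPKM in wild-type (log2 fold change 0.95 ± 0.18 (SE), adjusted p = 0.000648). The trehalase tre-5 rose by 1.48, the cysteine dioxygenase cdo-1 by 0.76 and the superoxide dismutase sod-3 by 0.92, while the S-adenosylmethionine synthetase sams-3 fell by 0.57 and ahcy-1, which breaks down S-adenosylhomocysteine, by 0.52. Nuclear hormone receptor genes were higher in 79 and lower in 6 of 180 cases. nhr-114, a receptor with roles in metabolism and fertility, was among those lower, with 83.5, 63.4, 32.2 and 61.2 FPKM in the double mutant and 142, 158, 111 and 148 FPKM in wild-type (-1.28 ± 0.22 (SE), adjusted p = 0.000287).

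Stress lists gave small and mixed shifts, with counts to be read against 26.4% higher and 11.9% lower among all genes. A count near those shares says little about its list. In endoplasmic reticulum stress 9 of 22 genes were higher and none lower (median 0.12), among them the transcription factor xbp-1 (0.43). Cytosolic heat shock genes were higher in 3 and lower in 3 of 20 cases. In oxidative stress 9 of 16 were higher and 2 lower. The catalase ctl-2 had 60.5, 61, 56.4 and 57.4 FPKM in the double mutant and 38, 36.8, 41.4 and 35.7 FPKM in wild-type (log2 fold change 0.63 ± 0.083 (SE), adjusted p = 2.15e-05), while the mitochondrial thioredoxin reductase trxr-2 had 5.4, 6.25, 5.55 and 4.98 FPKM in the double mutant and 8.69, 9.51, 8.76 and 8.49 FPKM in wild-type (log2 fold change -0.63 ± 0.073 (SE), adjusted p = 5.35e-06). These moved in opposite directions without overlap. In cysteine and sulfide metabolism 5 of 16 were higher and 3 lower, the sulfide oxidase sqrd-1 by 0.73 and the hypoxia regulator rhy-1 by 0.87 on the log2 scale. Metal handling genes were higher in 9 and lower in 3 of 27 cases, with the ferritin ftn-1 higher (1.52) and the zinc transporter zipt-2.3 lower (-1.17). Lipid breakdown was divided, 17 higher and 9 lower of 39, as were intestinal and lysosomal proteases, 5 higher and 6 lower of 19. Among amino acid transporters 3 of 17 were higher and 3 lower, for example aat-1 (0.56) and snf-5 (-1.48). Basement membrane genes were higher in 5 of 17 cases, against 26.4% of all genes, and had a median of 0.032, with the dystroglycan dgn-1 (0.71) and the syndecan sdn-1 (0.55) named by the rule.

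The double mutant was also set directly against each single mutant, to show where it differed from them. Against ivd-1 worms 7112 genes (44.6%) were called, 3416 (21.4%) higher and 3696 (23.2%) lower in the double mutant, with 1753 differing at least 2-fold. After quantile normalization 4388 were higher and 3036 lower. Against bcat-1 worms 3738 (23.4%) were called, 627 (3.93%) higher and 3111 (19.5%) lower. This split followed the scaling, with 2773 higher and 2710 lower after median-of-ratios scaling and 3341 higher and 1837 lower after quantile normalization. The bcat-1 comparison rested on few libraries: its count fell to 7 when only the 8 samples of those strains were fitted, to 434 without bcat-1 replicate 3 and to 609 without double mutant replicate 3, and it rose to 7696 without bcat-1 replicate 2. The 7 genes, named after their values were seen, were ivd-1, acdh-2, C09B8.4, pezo-1, T05A12.4, sec-23 and ncx-1. Of these, sec-23 and ncx-1 were listed at 0 in all 4 double mutant samples. Such a 0 may be a missing estimate, and no fold is given for them. Of the molting list 18 of 26 genes were lower in the double mutant than in bcat-1 worms, and of the sperm list 43 of 58. These counts were 21 and 55 without bcat-1 replicate 2. The molting count was 4 without bcat-1 replicate 3, 9 without bcat-1 replicate 1 and 5 without double mutant replicate 3. The sperm count was 0 in limma without double mutant replicate 3, bcat-1 replicate 1 or bcat-1 replicate 3, with 46, 51 and 45 genes at an unadjusted p under 0.05. It was 1 without double mutant replicate 4 and 10 without bcat-1 replicate 4. Neither list had a call in the fit of those strains alone, with 17 molting and 53 sperm genes at an unadjusted p under 0.05. Against ivd-1 worms, 55 of 58 sperm genes, 33 of 37 muscle genes, 80 of 81 cytosolic ribosome genes (26 after quantile normalization) and 38 of 42 respiratory chain genes were lower in the double mutant, and 146 of 297 ligase adaptors were higher.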

How the data were processed

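Poly(A) RNA of whole worms was sequenced from strand-marked libraries, and the authors processed the reads and estimated transcript levels with Cufflinks. The deposited table gives FPKM for 46284 genes and 20 samples. These values are not counts, so no count model was used, and absolute depth is not given. Per the study's methods the authors aligned with TopHat2, checked read quality and used the Ensembl 93 annotation, whose genome build is not named in the sources used here. IDs were named from the table's own symbols and Ensembl 115 (WBcel235), which held 46109 of them, and coordinates are from that annotation. Samples were grouped by strain label, 4 per strain. The labels and methods describe independent experiments, and no batch label was given.

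Genes with at least 0.5 FPKM in at least 4 samples were tested with limma 3.58.1 (R 4.3.3) on log2(FPKM + 0.5), with strain as the only term, all 20 samples and an intensity trend. P-values are 2-sided and Benjamini-Hochberg adjusted over all 15957 genes, and a gene was called at 0.05 or below. The procedure was tested on simulated data in which genes varied independently and few were changed. That setting cannot test shifts shared by many genes or the choice of scaling. 50 gene lists were described by counts and medians, and 12 list symbols matched no gene. Genes were named by a rule: members of branched-chain amino acid breakdown, the 12 largest changes per direction, the 3 largest among genes without such a name, up to 4 called members per list and the 6 most abundant called genes per direction, with exclusions for values of 0 and for replicates moving in opposite directions. Samples and lists were chosen with earlier results of these data known. Alternatives were other pseudocounts (0.1 and 1), no filter on low values or a mean of 1 FPKM, median-of-ratios and quantile scaling, a fit of the strains compared alone, a replicate block, a threshold of 0.01 and leaving out each sample.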

Additional observations from a re-analysis of the deposited data

Results flagged for a closer look

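Genes named above and some summed gene lists were examined in groups of 4 samples of a strain. Of 356 groups, 23, all of them of genes, held a sample that lay far from the other 3. Its gap to the nearest, as a share of the range of the group, was above Dixon's 95% critical value. About 1 group in 20 is picked by chance. In the double mutant, replicate 3 was high for pes-10 (12.63 FPKM against 7.74 to 8.45 FPKM) and low for clec-170 (1.32 FPKM against 2.27 to 2.46 FPKM), flp-8 (7.94 FPKM against 10.9 to 11.3 FPKM) and folt-2 (39.3 FPKM against 50.3 to 52.5 FPKM). Replicate 2 was high for dve-1 (11.2 FPKM against 9.53 to 9.77 FPKM). Replicate 4 was high for hsp-60 (254 FPKM against 243 to 245 FPKM) and low for kat-1 (154 FPKM against 170.1 to 172 FPKM). In wild-type, replicate 1 was high for R12E2.7 (22.8 FPKM against 0.427 to 0.958 FPKM), Y48G8AL.12 (37.1 FPKM against 1.91 to 2.62 FPKM), col-175 (17.6 FPKM against 1.13 to 3.41 FPKM), col-88 (31.1 FPKM against 1.04 to 2.23 FPKM), col-91 (16.9 FPKM against 0.398 to 1.63 FPKM), grd-6 (3.17 FPKM against 0.0975 to 0.339 FPKM), grl-16 (14 FPKM against 0.668 to 1.15 FPKM), lpr-3 (1.69 FPKM against 0.292 to 0.496 FPKM), mlt-11 (0.335 FPKM against 0.0766 to 0.115 FPKM) and pcca-1 (106 FPKM against 102 FPKM in each of the others, rounded) and low for glh-1 (244 FPKM against 262 to 264 FPKM). Of these 11 replicate 1 genes 3 are collagens, 2 are in the molting list and 2 in the hedgehog-related list. Wild-type replicate 3 was high for gst-38 (4.41 FPKM against 2.19 to 2.54 FPKM), lys-2 (103 FPKM against 48.4 to 56 FPKM) and ugt-31 (2.55 FPKM against 1.9 to 1.98 FPKM) and low for hach-1 (280.3 FPKM against 379.9 to 384 FPKM) and hphd-1 (351 FPKM against 428 to 429.5 FPKM). The cause was not tested.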

How the results depend on the processing

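The count of 6113 genes called in the double mutant against wild-type was 3869 at an adjusted p of 0.01, with 2733 higher and 1136 lower, and between 4902 and 6582 when 1 sample was left out. The higher calls lay between 3462 and 4528 and the lower calls between 1440 and 2054 in those fits. Quantile normalization gave 2365 higher and 2982 lower, reversing the balance of 4218 and 1895, and also turned the medians of the 20S proteasome to 0.0078, of neurotransmission to -0.051 and of C-type lectins to -0.011. Median-of-ratios scaling turned the median of ferritin, metallothionein and metals to -0.00995. The cause was not tested. Against bcat-1 worms 3738 genes were called, but 7 in the fit of those strains alone, 304 at 0.01, and 434 to 7696 when 1 sample was left out. Scaling also turned the direction of these calls, with 2773 higher and 2710 lower after median-of-ratios scaling and 3341 and 1837 after quantile normalization, against 627 and 3111. The lowest count came without bcat-1 replicate 3 and the highest without bcat-1 replicate 2. Against ivd-1 worms 7112 were called, 4259 at 0.01 and 5093 to 7751 with 1 sample left out.

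Of 169 genes named, 151 kept their side of the threshold in all 29 alternatives and none changed direction. Quantile normalization ended 12 calls and made 2 new ones.

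Over all genes, replicate numbers showed little pairing: same-numbered double mutant and wild-type samples had correlations of their deviations between -0.016 and 0.095. A low correlation over all genes cannot exclude a shared experiment that moved some genes. With a replicate block 5957 genes were called, 4078 higher and 1879 lower, against 3433 for bcat-1 and 6894 for ivd-1 worms, and no call of a named gene changed. Not every double mutant sample correlated best with the wild-type sample of its number. The median of the propionate shunt was nevertheless lowest in replicate 3 of all 5 strains, and the adjusted p of fat-7 was 9.31e-05 with the block. Relative depth was similar in all libraries, and what absolute depth limits cannot be given from FPKM. Without the low-value filter 5937 of 21693 genes were called.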

Other observations

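Beyond the lists described above, genes that share a name stem were counted, families being picked here after their values were seen. The F-box genes named fbxb were higher in 75 of 89 tested cases, the dpy genes, many of which shape the cuticle, in 19 of 24, the sdz genes of early embryos in 21 of 29 and the nspc genes, a nematode-specific peptide family, in 10 of 14. Transcription factors followed, with homeobox ceh genes higher in 27 of 50, basic helix-loop-helix hlh genes in 10 of 14 and T-box tbx genes in 8 of 12, against 26.4% of all genes. The transthyretin-like ttr genes were higher in 28 of 55, and the pgp transporters in 9 of 14. Among cytochrome c oxidase related cox genes 11 of 14 were lower, and of the msp genes 28 of 29, against 11.9% of all genes. Of the spe genes 6 of 29 were lower. Median log2 fold changes of the fbxb genes were 0.94 in the double mutant, 0.67 in bcat-1 worms and 0.018 in ivd-1 worms, each against wild-type.

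By chromosome, genes called higher made up 37.8% of 2208 tested genes on X and 29.3% of 3193 on V, but 19.5% of 2531 on I. Lower calls made up 5.84% on X and 15% on I. Of 14 mitochondrially encoded genes none was called higher and 2 were called lower.

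A pair of overlapping neighbours on chromosome V was listed at 0 in all 4 double mutant samples. sec-23, a subunit of the coat of transport vesicles, was also listed at 0 in ivd-1 replicate 1 and had 83.6, 84.9, 79.6 and 83.6 FPKM in wild-type, and ncx-1, a sodium-calcium exchanger, had 25.4, 27.6, 24.5 and 21.3 FPKM in wild-type and 0 in the same ivd-1 replicate. In these files a gene can be listed at 0 in some libraries and well expressed in others: 126 genes were at 0 in some of the 8 samples and at 10 FPKM or more in another, so no fold is given. pezo-1, a mechanosensitive channel gene on chromosome IV, had 14.9, 15.2, 14.4 and 15.3 FPKM in the double mutant, 14.4, 14.8, 14.1 and 14.8 FPKM in ivd-1 worms, 31.9, 31.2, 31.1 and 32.3 FPKM in bcat-1 worms and 27.9, 27, 27.5 and 27.6 FPKM in wild-type, low in both strains that carry ivd-1(tm6784), an allele on the same chromosome. T05A12.4, also on chromosome IV, had 13.3, 12.5, 14.5 and 13.2 FPKM in the double mutant, 8.08, 7.52, 7.68 and 8.36 FPKM in ivd-1 worms, 4.27, 5.21, 3.86 and 4.39 FPKM in bcat-1 worms and 3.15, 2.95, 3.05 and 3.55 FPKM in wild-type, highest in the double mutant among these, while hecd-1 worms had 15.4, 15, 16.9 and 17.5 FPKM. These genes were picked after their values were seen.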
